A study of Mus musculus with 6 samples.

Results

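The Slc25 family of mitochondrial carriers was followed in single heart cells of mice in which an active form of the transcriptional co-activator YAP was switched on in cardiomyocytes. The members were taken by symbol, as every row of the count table named Slc25a followed by digits alone, and 41 of the 22281 rows met that rule. YAP5SA hearts carried the genotype Yap5SA+/tg; Myh6-MCM and Control hearts carried Myh6-MCM alone, so that both had the Myh6-driven, tamoxifen-inducible Cre recombinase MerCreMer, whose promoter restricts it to cardiomyocytes. All mice were adult and had been given tamoxifen. The transgene codes for a YAP that the kinases Lats1 and Lats2 cannot phosphorylate. Hearts were digested with collagenase on a Langendorff apparatus and run on Drop-seq, a droplet method that counts unique molecular identifiers (UMIs) at transcript 3' ends. There were 3 YAP5SA and 3 Control libraries. In each genotype 2 libraries held the recombined cardiomyocyte and other fractions ("tissue") and 1 held cardiomyocytes settled by gravity ("enriched"). They are called YAP5SA tissue-1, YAP5SA tissue-2 and YAP5SA enriched, and Control enriched, Control tissue-2 and Control tissue-3. The labels do not state how many animals a library holds, so the p-values measure only the spread between these libraries.

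Slc25 proteins are small carriers of the inner mitochondrial membrane that exchange nucleotides, phosphate, acids, amino acids, acylcarnitines and cofactors between the cytosol and the matrix. Heart muscle makes most of its ATP in mitochondria, and every molecule of it leaves the matrix through an ADP/ATP carrier, while phosphate re-enters through the phosphate carrier. Other members run the malate-aspartate shuttle, which moves reducing equivalents inward, or bring in fatty acids bound to carnitine. The calcium-regulated ATP-Mg/phosphate carriers change the total pool of adenine nucleotides in the matrix.

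The 6 libraries held 21706 cells and 50784032 UMIs, from 6665280 to 13483791 UMIs per YAP5SA library and from 3382656 to 10568669 per Control library, and 10 cell barcodes occurred in 2 libraries. The clusters CM1, CM2, CM3 and YAP5SAcm of the deposited cell table were summed per library as cardiomyocytes, and the other clusters as 7 further classes. Cardiomyocytes numbered 343, 282 and 1004 in the tissue-1, tissue-2 and enriched libraries of YAP5SA hearts, and 1068, 576 and 1173 in the enriched, tissue-2 and tissue-3 libraries of Control hearts. Of these, 61.8%, 72.0% and 47.9% lay in the cluster YAP5SAcm in the YAP5SA libraries, against 1.5%, 8.68% and 2.81% in the Control libraries in the same orders, while CM1 was the cluster with the most cells in each Control library. None of the 10 cardiomyocyte markers was at 0 in the class in either genotype. Yap1 itself had 37.1, 32.1 and 20.8 CPM (UMI counts scaled to a common total per library) in YAP5SA cardiomyocytes and 21.9, 20.4 and 22.8 CPM in Control cardiomyocytes (log2 fold change 0.43 ± 0.29 SE, edgeR adjusted p = 0.306), so it gave no check of the labels; whether transgene transcripts are counted under this symbol is not given in the sources used here. Control tissue-2 stood apart from the other Control libraries in many values below, towards YAP5SA.

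Slc25 transcripts took a smaller part of the cardiomyocyte transcriptome in YAP5SA than in Control hearts. They made up 0.508%, 0.379% and 0.645% of all cardiomyocyte UMIs in the tissue-1, tissue-2 and enriched libraries of YAP5SA hearts, and 1.86%, 0.913% and 1.62% in the enriched, tissue-2 and tissue-3 libraries of Control hearts. The libraries of the genotypes did not overlap. Slc25a4, Slc25a3 and Slc25a5 supplied 77.8% to 91.6% of these UMIs per library, so the share mainly describes these genes. The share of the other members alone was not tested. In the other 7 classes the share ran from 0.195% to 0.381% in YAP5SA libraries and from 0.241% to 0.681% in Control libraries, and the genotypes overlapped in most of them. The highest value outside cardiomyocytes, 0.681%, came from the 10 fibroblasts of Control enriched. Mitochondrially encoded transcripts took 9.54%, 9.53% and 10.6% of cardiomyocyte UMIs in the YAP5SA libraries and 14.9%, 7.79% and 16.1% in the Control libraries, overlapping between genotypes.

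**Figure D1:**
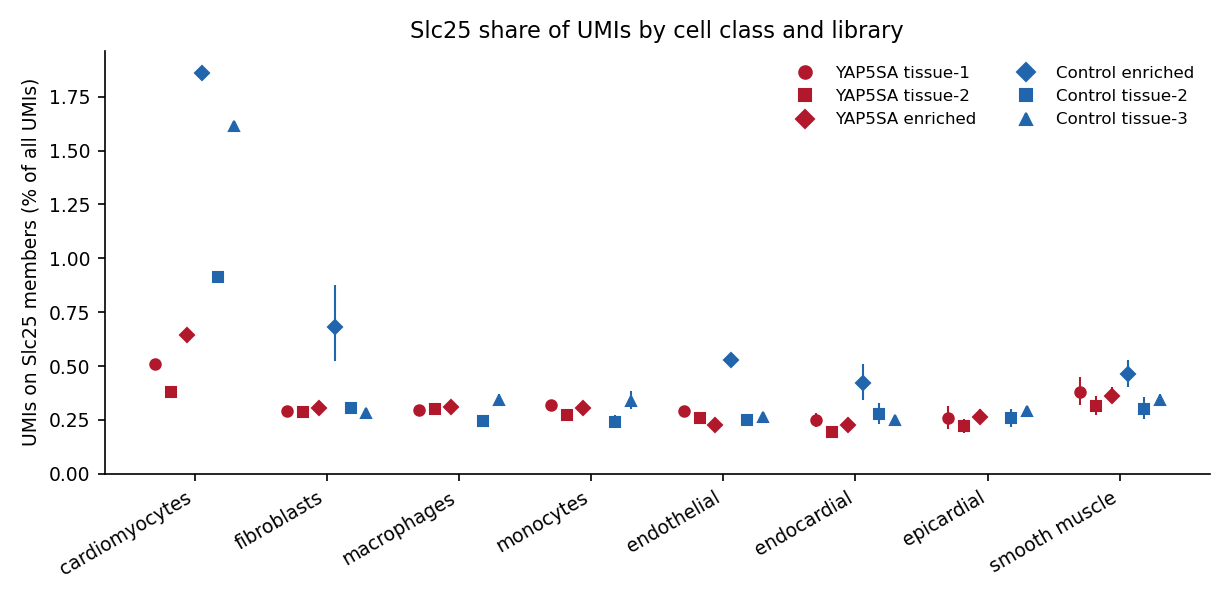
Share of UMIs on the 41 Slc25 members (y axis, percent of all UMIs) by cell class (x axis); each point is a library, YAP5SA in red left of Control in blue, with an exact 95% interval for counting error. In cardiomyocytes the YAP5SA libraries lie at 0.379% to 0.645% and the Control libraries at 0.913% to 1.86%; in the other classes they run from 0.195% to 0.381% in YAP5SA and from 0.241% to 0.681% in Control.

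Across the cardiomyocyte class, 12 members were lower and 2 were higher in YAP5SA than in Control hearts. The test was edgeR's quasi-likelihood test on summed counts, with preparation as a covariate and Benjamini-Hochberg adjustment over all 11806 genes tested. Among all these genes 12.1% were lower and 13.3% higher, so lower calls were more frequent among the members and higher calls were not. A filter on low counts left 32 members, of which 24 had a log2 fold change below 0 and 8 above it. Their median was -0.98, against 0.06 over all genes tested. In 14 of the 32 every YAP5SA library lay below every Control library, which held for 21.6% of all genes, and in 4 every YAP5SA library lay above, against 25.4% of all genes. The other 9 members had between 1 and 51 cardiomyocyte UMIs in all 6 libraries together and were not tested.

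The fold changes are relative to the bulk of genes in each library (TMM scaling). When counts were scaled by library totals alone, the median of all genes moved to 0.92 and 4 members were lower and 7 higher. By totals 3.71% of all genes were lower and 37% higher. Of the members described below, Slc25a5, Slc25a12, Slc25a13, Slc25a16, Slc25a20, Slc25a29 and Slc25a39 did not pass by totals, with Slc25a12, Slc25a16 and Slc25a39 at -0.17, -0.13 and -0.11 on the log2 scale. The 14 members kept their direction in each setting in which they were tested, which was all 14 in each setting but that of cells without marker UMIs, with 12.

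The numbers called depended on single libraries, among the members as among all genes. Without YAP5SA tissue-1 there were 0 lower and 2 higher members, where 0.616% of all genes were lower and 4.03% higher. Without YAP5SA tissue-2 there were 0 of either kind by edgeR, where 0.0349% of all genes were lower and 1.73% higher. In each of these fits 14 of 32 members had an unadjusted p under 0.05. Among all genes tested, 3387 of 11525 and 3039 of 11471 had such a p. Without YAP5SA enriched, Control enriched or Control tissue-3 there were 5 lower and 2 higher members each. In these fits 4.95% to 6.11% of all genes were lower and 6.53% to 7.81% higher. With 1 enriched library left out, preparation accounts fully for the other, so the genotype term rests on the tissue libraries. Those fits and the one on tissue libraries alone are therefore nearly the same comparison. Without Control tissue-2 there were 17 lower and 2 higher members, where 19.1% of all genes were lower and 20.7% higher. Without the cells of the cluster YAP5SAcm no member passed by edgeR. Of 30 members 6 had an unadjusted p under 0.05, against 1808 of 10305 genes. There 0% of all genes were lower and 0.155% higher, and the median over members was -0.76. In the tissue libraries alone, a fit within that preparation, 5 members were lower and 2 higher, where 6.85% of all genes were lower and 9.69% higher. Gene names were written differently in the libraries: in 4 of them some names are joined by hyphens, and in Control tissue-3 and YAP5SA enriched they are not. A fit on the 4 alone kept preparation as a term, with Control enriched as the only enriched library. Its genotype term therefore rested on both YAP5SA tissue libraries against Control tissue-2 alone, so no calls are given. The median over members was -0.02 there, against 0.09 over all genes. An effect of naming cannot be told apart there from that of using Control tissue-2 alone.

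**Figure D2:**
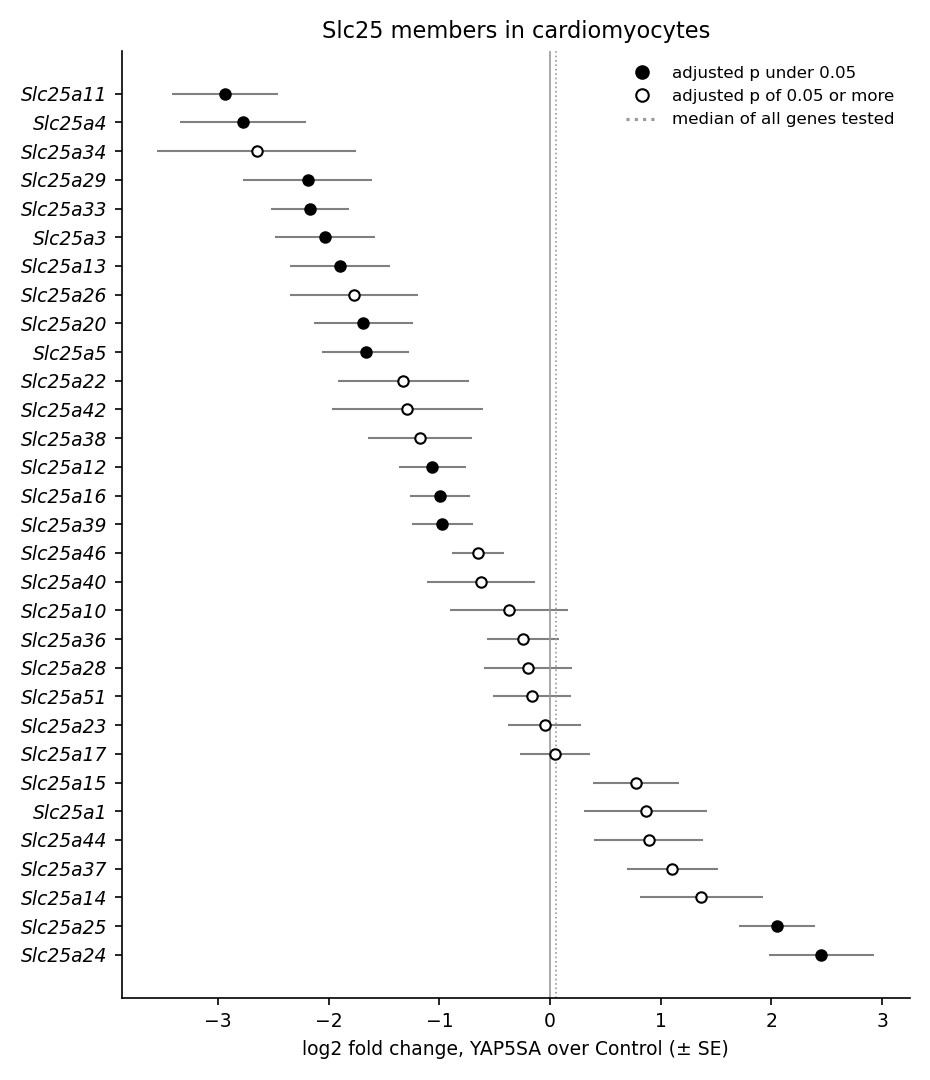
Fitted log2 fold change, YAP5SA over Control, of 31 members tested in cardiomyocytes (x axis, with standard error), in order of value; filled points had an edgeR adjusted p under 0.05. The values run from -2.93 for Slc25a11 to 2.45 for Slc25a24, and 23 of the 31 lie below 0.

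The ADP/ATP carriers and the phosphate carrier, which together serve ATP synthesis and export, fell in YAP5SA cardiomyocytes on the TMM scale. By library totals Slc25a5 did not pass. Slc25a4, the ADP/ATP carrier of heart and skeletal muscle, had 2118, 1349 and 3404 TMM-scaled CPM in the tissue-1, tissue-2 and enriched libraries of YAP5SA hearts, against 20867, 6775 and 18237 in the enriched, tissue-2 and tissue-3 libraries of Control hearts; the values of every gene below follow these 2 orders of libraries. The genotypes did not overlap, and Control tissue-2 was the lowest Control library. The mean was 2290.4 ± 1039 in YAP5SA and 15293 ± 7493 in Control (SD, n = 3 each), a log2 fold change of -2.77 ± 0.57 SE (edgeR adjusted p = 0.016). Slc25a3, which carries phosphate into the matrix, had 558, 510.4 and 937 CPM in YAP5SA and 2779, 1700.2 and 3437 CPM in Control (-2.03 ± 0.45, edgeR adjusted p = 0.0194). Slc25a5, the more widely expressed ADP/ATP carrier, had 211, 203 and 459.9 CPM in YAP5SA and 838, 814 and 914 CPM in Control (-1.67 ± 0.39, edgeR adjusted p = 0.0228). In both genes the enriched library was the highest of the YAP5SA libraries and still lay below every Control library. These 3 genes supplied most Slc25 UMIs of cardiomyocytes, 81.1%, 77.8% and 88.0% in the YAP5SA libraries and 91.6%, 89.5% and 90.7% in the Control libraries. Slc25a4 and Slc25a5 are close paralogues, and a pseudogene row, Slc25a5-ps, held 75 UMIs in all cells, against 40208 for Slc25a5; how reads were shared among such copies is not given in the sources used here.

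The 2 members that rose were both calcium-regulated ATP-Mg/phosphate carriers. Slc25a25 had 19.9, 23.8 and 13.9 CPM in YAP5SA and 4.48, 5.00 and 4.22 CPM in Control, a log2 fold change of 2.05 ± 0.34 (edgeR adjusted p = 0.01). Slc25a24 had 7.94, 16.6 and 8.21 CPM in YAP5SA and 1.49, 2.34 and 2.11 CPM in Control (2.45 ± 0.48, edgeR adjusted p = 0.0136). In both, every YAP5SA library lay above every Control library. The counts behind them were small, 146 UMIs in YAP5SA and 44 in Control for Slc25a25, and 85 and 20 for Slc25a24. The related carrier Slc25a23 was not called (log2 fold change -0.05, edgeR adjusted p = 0.928). Both genes that rose were more abundant in other cell types than in cardiomyocytes. On the scale of CPM by library totals, Slc25a24 averaged 71.5 CPM in monocytes and 14.9 CPM in cardiomyocytes of YAP5SA hearts, and 75.3 and 1.49 CPM in those of Control hearts. Slc25a25 averaged 56.4 CPM in epicardial cells and 26.3 CPM in cardiomyocytes of YAP5SA hearts, and 104 and 3.42 CPM in those of Control hearts. Epicardial markers in cardiomyocytes summed to 30.9 to 51.0 CPM in YAP5SA and 2.00 to 5.90 CPM in Control, and their part in the Slc25a25 difference was not tested. In cardiomyocytes without any UMI of 18 macrophage and fibroblast markers Slc25a25 passed (3.11 ± 0.73, edgeR adjusted p = 0.0224). Slc25a24 had too few counts there to be tested. Those cells were unevenly spread, with 104, 42 and 477 in the YAP5SA libraries and 923, 176 and 361 in the Control libraries.

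Carriers of the malate-aspartate shuttle also fell on the TMM scale, while by library totals only Slc25a11 among them passed. Slc25a11, which exchanges malate for oxoglutarate, had the largest fall of all members tested, with 99.3, 73.7 and 135 CPM in YAP5SA and 967, 356 and 1006 CPM in Control (-2.93 ± 0.48, edgeR adjusted p = 0.00954). Slc25a13, the aspartate-glutamate carrier citrin, had 45.7, 40.5 and 44.3 CPM in YAP5SA and 199, 69.4 and 221 CPM in Control (-1.89 ± 0.45, edgeR adjusted p = 0.0236). Its YAP5SA libraries lay close together, and Control tissue-2 lay nearer to them than to the other Control libraries. The second aspartate-glutamate carrier, Slc25a12 or aralar, had 65.5, 63.2 and 55.2 CPM in YAP5SA and 146, 91.1 and 147 CPM in Control (-1.06 ± 0.30, edgeR adjusted p = 0.0402). The glutamate carrier Slc25a22, the dicarboxylate carrier Slc25a10 and the citrate carrier Slc25a1 did not pass, with log2 fold changes of -1.32, -0.37 and 0.86.

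Of the 5 carriers of acylcarnitine and amino acids tested, 2 were lower, against 12.1% of all genes. Slc25a20, which exchanges acylcarnitine for carnitine and so admits long-chain fatty acids, had 66.2, 29.9 and 56.5 CPM in YAP5SA and 174, 92.4 and 224 CPM in Control (-1.69 ± 0.45, edgeR adjusted p = 0.0328). Slc25a29, a carrier of basic amino acids, had 4.63, 1.11 and 1.72 CPM in YAP5SA and 11.95, 7.34 and 12.6 CPM in Control (-2.19 ± 0.58, edgeR adjusted p = 0.033). Neither gene overlapped between genotypes, though Slc25a29 rested on 18 UMIs in YAP5SA and 106 in Control. The ornithine carrier Slc25a15, the glycine carrier Slc25a38 and the branched-chain amino acid carrier Slc25a44 did not pass.

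Among 10 carriers of nucleotides and cofactors tested, 4 were lower and none higher, against 12.1% and 13.3% of all genes. Slc25a33, a pyrimidine nucleotide carrier needed for mitochondrial DNA and RNA synthesis, had 10.6, 13.9 and 26.5 CPM in YAP5SA and 149.9, 32.7 and 63.5 CPM in Control (-2.16 ± 0.35, edgeR adjusted p = 0.00954). Its Control libraries spread widely, with the enriched one highest. Slc25a16, linked to coenzyme A transport, had 14.6, 19.9 and 15.8 CPM in YAP5SA and 32.9, 33.0 and 34.4 CPM in Control (-0.99 ± 0.27, edgeR adjusted p = 0.0362). Slc25a39, a carrier required for mitochondrial glutathione, had 72.8, 68.7 and 92.9 CPM in YAP5SA and 141, 160.5 and 155 CPM in Control (-0.97 ± 0.27, edgeR adjusted p = 0.0389). Neither overlapped between genotypes on this scale; both are among the genes that did not pass by library totals. The NAD carrier Slc25a51, the only member with a row joined to another gene's name, was at -0.16 (edgeR adjusted p = 0.76).

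**Figure D3:**
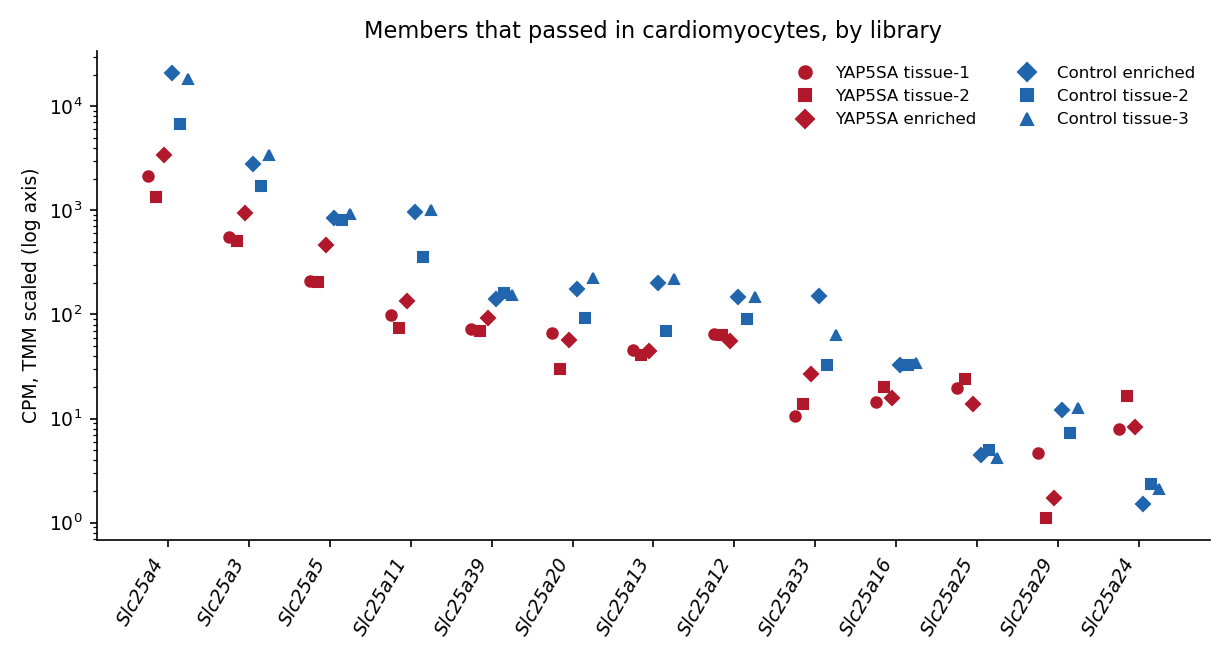
TMM-scaled CPM (y axis, log scale) of 13 members that passed in cardiomyocytes (x axis, by mean level); each point is a library, YAP5SA in red left of Control in blue. YAP5SA libraries lie below all Control libraries in 11 genes and above them in Slc25a25 and Slc25a24.

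The remaining members did not pass. Slc25a34, an orphan carrier, had 12.6, 5.54 and 5.53 CPM in YAP5SA and 78.2, 7.01 and 64.9 CPM in Control (-2.65 ± 0.90, edgeR adjusted p = 0.0727). Control tissue-2 lay within the YAP5SA range, and without that library the value was -3.29 and passed. Slc25a46, an outer membrane protein that takes part in mitochondrial dynamics, had 46.3, 48.8 and 36.3 CPM in YAP5SA and 61.8, 69.7 and 73.8 CPM in Control (-0.65 ± 0.24, edgeR adjusted p = 0.0799). When scaled by library totals its log2 fold change was 0.21. Neither mitoferrin, the iron carriers Slc25a28 and Slc25a37, passed, and their log2 fold changes were -0.20 and 1.11. Over the 16 members that neither passed nor reached a mean of 50 CPM in either genotype, log2 fold changes ran from -1.77 to 1.37 and edgeR adjusted p from 0.0628 to 0.933.

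Genes that work beside the family were described from 3 further lists, and their counts stand beside 12.1% lower and 13.3% higher among all genes. Of 12 genes of the import machinery that inserts carriers into the inner membrane, 3 were lower and none higher, with a median log2 fold change of -0.71. Timm8b and Timm10b, small chaperones of the intermembrane space, had log2 fold changes of -1.74 (edgeR adjusted p = 0.0222) and -1.17 (edgeR adjusted p = 0.0423). Of 11 other mitochondrial transport genes 4 were lower and none higher, with a median of -0.91. Both subunits of the mitochondrial pyruvate carrier were among them. Mpc1 had 66.2, 48.8 and 96.0 CPM in YAP5SA and 348, 362 and 376 CPM in Control (-2.41 ± 0.35, edgeR adjusted p = 0.00724). Mpc2 had 423, 267 and 754 CPM in YAP5SA and 3465, 1431 and 3419 CPM in Control (-2.61 ± 0.51, edgeR adjusted p = 0.0136). Among 4 carriers of the same fold with other symbols, 2 were higher and none lower. Mtch1, an outer membrane insertase, had a log2 fold change of 1.03 (edgeR adjusted p = 0.0259) and the uncoupling protein Ucp2 one of 1.70 (edgeR adjusted p = 0.045).

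Markers of several cell types moved with the genotype in the same cells, where 12.1% of all genes were lower and 13.3% higher. Cardiomyocyte markers summed to 21417 to 34838 CPM in YAP5SA libraries and 66465 to 130531 CPM in Control libraries, and 5 of the 10 were lower and none higher. Smooth muscle markers summed to 2165.6 to 2497 CPM in YAP5SA and 50.8 to 335 CPM in Control, mostly through Acta2, and 4 of 5 were higher. Epicardial markers summed to 30.9 to 51.0 CPM in YAP5SA and 2.00 to 5.90 CPM in Control, with all 3 tested higher. Macrophage markers summed to 147 to 392 CPM in YAP5SA and 13.9 to 145 CPM in Control, with 1 of 9 higher, and endocardial markers to 36.1 to 48.2 CPM in YAP5SA and 11.9 to 20.7 CPM in Control, with 2 of 3 tested higher. For fibroblast, endothelial, monocyte and erythroid markers 0 of 8, 7, 2 and 4 tested passed, 1 of 4 pericyte markers was lower, 0 of 1 Schwann cell marker passed, and neutrophil, T or NK, B and fat cell markers were too low to test. The part of other cell types in the Slc25 differences was not tested beyond the fit on cells without macrophage and fibroblast markers. That fit kept unequal parts of the libraries, from 42 of 282 cardiomyocytes in YAP5SA tissue-2 to 923 of 1068 in Control enriched. In it 6 of 23 members tested were lower and 1 was higher, where 6.33% of all genes were lower and 8.07% higher. Of the 6, 4 were Slc25a3, Slc25a4, Slc25a5 and Slc25a11.

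Promoters are shown for both ADP/ATP carriers, which fell in cardiomyocytes on the TMM scale, and for both carriers that rose. The sequences are RefSeq's (GRCm38.p6), from 250 bases before to 50 after the start, and 32 of the 41 members matched. Capitals mark the TEAD core GGAATG, the motif bound by YAP's partner factors, in either strand, and no other motif searched was found in these 4. Slc25a4 lies at chr8:46211013-46211312 on the minus strand, Slc25a5 at chrX:36795347-36795646 on the plus strand, Slc25a24 at chr3:109122899-109123198 on the plus strand and Slc25a25, of which the first of 3 listed promoters is given, at chr2:32451421-32451720 on the minus strand.
Slc25a4: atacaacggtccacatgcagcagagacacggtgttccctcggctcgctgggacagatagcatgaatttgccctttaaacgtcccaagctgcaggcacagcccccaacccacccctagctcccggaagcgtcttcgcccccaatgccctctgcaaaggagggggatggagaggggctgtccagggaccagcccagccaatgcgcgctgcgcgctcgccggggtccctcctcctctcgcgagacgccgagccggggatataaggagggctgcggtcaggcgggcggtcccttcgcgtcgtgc
Slc25a5: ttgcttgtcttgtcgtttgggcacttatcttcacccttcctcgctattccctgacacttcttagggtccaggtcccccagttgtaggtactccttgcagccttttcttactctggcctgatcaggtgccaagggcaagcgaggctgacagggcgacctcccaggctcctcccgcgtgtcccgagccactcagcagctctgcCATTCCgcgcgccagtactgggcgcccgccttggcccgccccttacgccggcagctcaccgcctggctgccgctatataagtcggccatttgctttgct
Slc25a24: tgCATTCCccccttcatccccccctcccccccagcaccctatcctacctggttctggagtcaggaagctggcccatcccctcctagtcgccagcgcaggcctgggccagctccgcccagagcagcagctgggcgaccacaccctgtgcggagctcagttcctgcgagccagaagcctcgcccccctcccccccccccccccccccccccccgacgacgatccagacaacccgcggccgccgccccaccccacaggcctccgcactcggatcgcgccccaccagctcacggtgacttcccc
Slc25a25: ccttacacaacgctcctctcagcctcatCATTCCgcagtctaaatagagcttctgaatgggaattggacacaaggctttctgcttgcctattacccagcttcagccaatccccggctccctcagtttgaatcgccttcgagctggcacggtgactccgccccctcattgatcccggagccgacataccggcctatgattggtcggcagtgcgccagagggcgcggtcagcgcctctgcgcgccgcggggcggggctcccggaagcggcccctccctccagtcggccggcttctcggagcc
The TEAD core was present in Slc25a5, Slc25a24 and Slc25a25 and not in Slc25a4, and 14.7% of all 32817 promoters of this length hold it. It was found in 3 of the 11 promoters of members that fell, which besides Slc25a5 were those of Slc25a16 and Slc25a20, and in 3 of the 4 promoters of the members that rose, namely that of Slc25a24 and all but 1 of those of Slc25a25. Promoters of Slc25a23 and Slc25a36, which were not called, also held it. Over all members it was in 9 of 41 promoters (22%). The half-site AAGGTCA of oestrogen-related receptors, regulators of mitochondrial genes, was in 0 of the 11 and 0 of the 4, against 4.72% of all promoters, and the YY1 core AAGATGGC in 1 of the 11, that of Slc25a3, against 2.74%. Both strands were searched, and no matches overlapped. A match is a description of letters and no evidence of binding.

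Within single clusters of cardiomyocytes no member passed, and most members called in the class kept its direction. Of the members that passed in the whole class, 12 could be tested in CM1, and all 12 had the direction of the class, with log2 fold changes from -1.81 to -0.33. In CM2, CM3 and YAP5SAcm, 7 of 8, 9 of 9 and 10 of 12 did. These members were picked by their call in the class, and the cells of each cluster are part of that class. Agreement in direction was therefore partly fixed in advance and is no separate support. The same share among all called genes is not given here. The background was low in CM1 and CM3, where 0.0217% and 0% of all genes were called, and higher in CM2 and YAP5SAcm, where 4.66% (1.55% lower, 3.11% higher) and 8.7% (3.03% lower, 5.67% higher) were. Slc25a4 averaged 5718 ± 1386 CPM by library totals in YAP5SA CM1 cells and 11449 ± 4686 in Control CM1 cells, and 1968 ± 506 in YAP5SA cells and 5202 ± 2301 in Control cells of the cluster YAP5SAcm (SD, n = 3 libraries each). Its level was thus lower in the cluster YAP5SAcm than in CM1 in both genotypes, and within each the YAP5SA mean was the lower one, with edgeR adjusted p of 0.316 in CM1 and 0.085 in YAP5SAcm. Slc25a11 had log2 fold changes of -1.81, -2.09, -1.78 and -1.38 in CM1, CM2, CM3 and YAP5SAcm. Clusters were drawn from the same transcripts, and cells were few: 26 in YAP5SA tissue-2 for CM2 and for CM3, and, in the cluster YAP5SAcm, 16 cells of the enriched and 33 of the tissue-3 library of Control hearts. Among the fibroblast clusters CF4 had the background of 2.44% of genes, 0.821% lower and 1.62% higher, and no member passed there either. Over all 16 clusters tested no member passed by edgeR and 30 of 234 pairs of member and cluster had an unadjusted p under 0.05. In CM1, CM2, CM3 and YAP5SAcm such a p was found for 5 of 25, 3 of 8, 5 of 14 and 4 of 19 members. Among all genes there it was found for 1225 of 9229, 672 of 2639, 804 of 4872 and 1456 of 6997. In CF1 to CF4, EpiC and SMC no member had such a p. Without Control tissue-2, 7 clusters kept 2 Control libraries, and 18 pairs there were lower and 0 higher. All 18 came from CM1, CM2, CM3 and YAP5SAcm. In these 7 clusters 0% to 12.3% of all genes were lower and 0.072% to 9.15% higher. The other clusters kept 1 Control library, which cannot show the spread between Control libraries, so no calls are given for them.

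In the other 7 cell classes no member passed by edgeR. DESeq2 called 1 pair, Slc25a5 in macrophages. By edgeR 11 of 88 pairs of member and class had an unadjusted p under 0.05. In fibroblasts, macrophages, monocytes and endothelial cells these were 1 of 29, 4 of 31, 2 of 6 and 2 of 12 members. Among all genes there, 922 of 11416, 1340 of 11770, 336 of 3568 and 632 of 6169 had such a p. In endocardial, epicardial and smooth muscle cells it was 1 of 4, 1 of 3 and 0 of 3 members. Among all genes there it was 141 of 2504, 121 of 1874 and 67 of 1281. The background was 1.95% of genes in fibroblasts, with 0.456% lower and 1.5% higher, 0.028% in monocytes and 0% in macrophages, endothelial, endocardial, epicardial and smooth muscle cells. Slc25a5 lay above 0 in each class, with log2 fold changes from 0.44 in endocardial cells to 1.25 in fibroblasts, while Slc25a4 lay below 0 in each. In macrophages Slc25a5 had 1146, 1307 and 1234 CPM by library totals in the tissue-1, tissue-2 and enriched libraries of YAP5SA hearts, and 674 and 418 CPM in Control tissue-2 and tissue-3. All YAP5SA libraries lay above both Control libraries (log2 fold change 1.06, edgeR adjusted p = 0.298). Without Control tissue-2, log2 fold changes in macrophages and monocytes were 1.38 and 1.66 for Slc25a5 and -1.93 and -2.14 for Slc25a4. Control tissue-3 is then their only Control library, so only the size of these values is given. In fibroblasts Slc25a13 was lower without Control tissue-2 (-2.86 ± 0.73, edgeR adjusted p = 0.00272), where Control enriched held 10 cells.

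The genotype effect itself differed between cardiomyocytes and other classes for 10 members. In an edgeR fit with each library as a block, 34 of 213 pairs of member and class had an adjusted p under 0.05 for the class by genotype term, 29 with a lower and 5 with a higher value in cardiomyocytes. Among all genes, 1.84% to 7.26% were lower and 3.24% to 9.73% higher, depending on the class. Slc25a3 and Slc25a5 differed from all 7 classes, by -2.20 to -1.65 and by -3.24 to -2.06 on the log2 scale. Slc25a5 thus had a negative log2 fold change in cardiomyocytes and positive ones in the other classes. Slc25a11 differed from 5 classes, and Slc25a4 from fibroblasts, endocardial, epicardial and smooth muscle cells; its differences from macrophages, monocytes and endothelial cells did not pass. Slc25a24 was higher against fibroblasts, endothelial and endocardial cells and Slc25a25 against fibroblasts and epicardial cells. Scaling by library totals gave 12 lower and 12 higher pairs. The shares of all genes called in this fit and those that follow are not given here. The counts therefore show only how far the calls shift. Without YAP5SA tissue-1 there were 15 lower and 3 higher pairs, without YAP5SA tissue-2 16 and 1, without Control tissue-3 11 and 1; without YAP5SA enriched 8 were higher and without Control tissue-2 1 was.

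**Figure D4:**
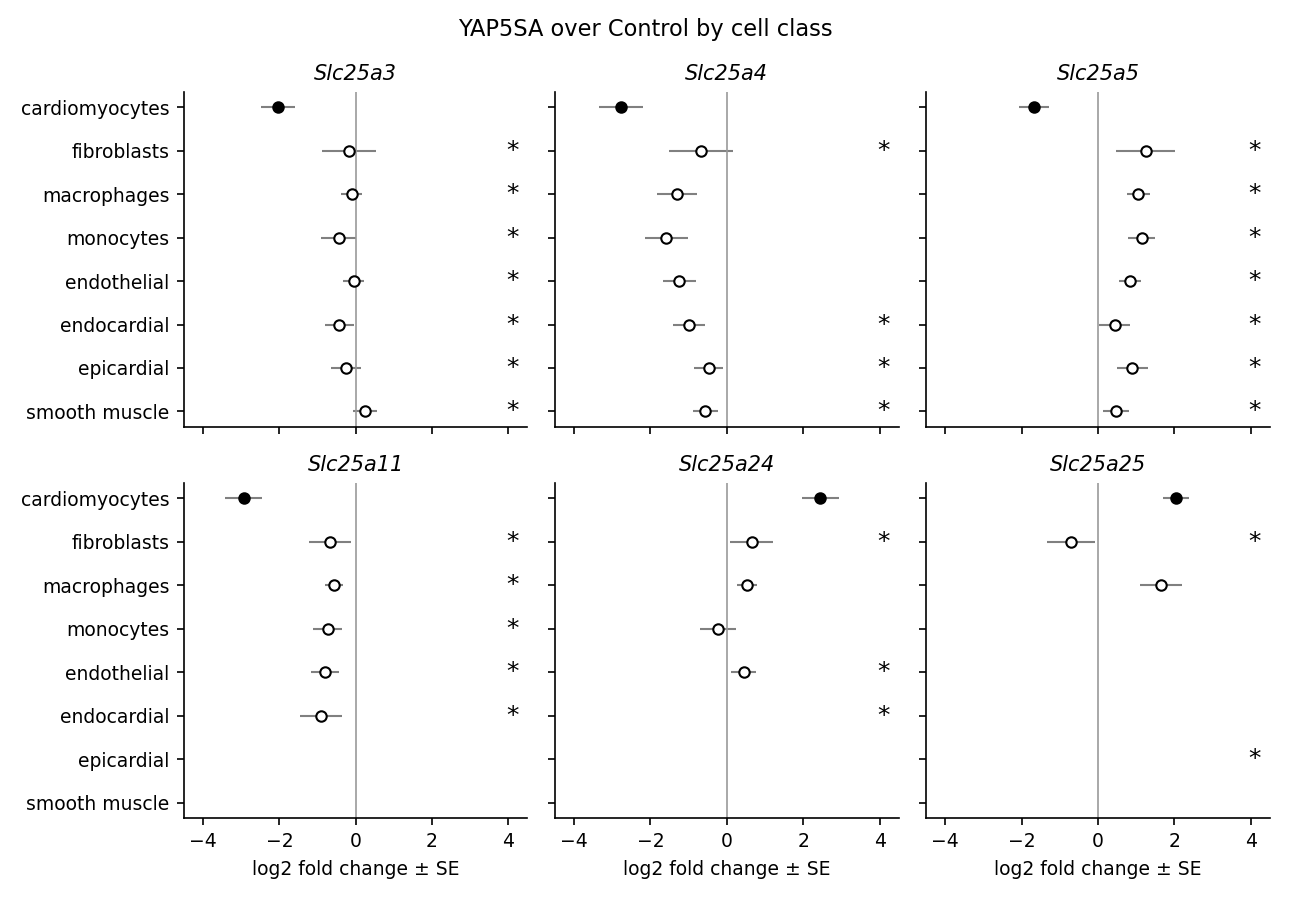
Log2 fold change, YAP5SA over Control, with standard error (x axis) of 6 members in each cell class (y axis); filled points passed within the class, asterisks mark classes whose genotype effect differed from that in cardiomyocytes, and an absent point was too low to test. Slc25a5 is at -1.67 in cardiomyocytes and above 0 in the other 7 classes.

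Transcripts of cardiomyocyte markers were found in every class. The 10 cardiomyocyte markers reached 2.11% to 11.3% of their own cardiomyocyte level in the other classes of YAP5SA libraries and 3.56% to 39.2% in those of Control libraries, highest in the fibroblasts of Control enriched. Slc25a4 reached 16.9% to 52.0% of its cardiomyocyte level in YAP5SA and 9.80% to 34.6% in Control. In macrophages of Control tissue-3 the markers stood at 12.8% and Slc25a4 at 15.8%, and in macrophages of YAP5SA tissue-2 at 2.55% and 21.8%. The markers and Slc25a4 were thus closer to each other in Control than in YAP5SA macrophages. How far free cardiomyocyte RNA enters the Slc25 values of other classes was not tested.

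The balance of both ADP/ATP carriers was taken as a ratio within a library, which needs no scaling between libraries. In cardiomyocytes Slc25a4 made up 90.9%, 86.9% and 88.1% of Slc25a4 and Slc25a5 UMIs in the tissue-1, tissue-2 and enriched libraries of YAP5SA hearts, with exact 95% intervals of 89.9% to 91.9%, 85.6% to 88.2% and 87.6% to 88.5%. In the enriched, tissue-2 and tissue-3 libraries of Control hearts it made up 96.1%, 89.3% and 95.2%, with intervals of 96.0% to 96.3%, 88.9% to 89.7% and 95.1% to 95.4%. YAP5SA tissue-1 lay above Control tissue-2, so the genotypes overlapped. The means were 88.7% ± 2.06 in YAP5SA and 93.5% ± 3.73 in Control (SD, n = 3 each), a difference of -4.89 percentage points that a two-sided exact permutation test within preparation did not separate (p = 0.333, smallest possible p = 0.167). The ratio cannot tell whether either paralogue fell, and an unequal fall was not shown. On the TMM scale both were lower, while by library totals Slc25a5 did not pass. In macrophages the share was 32.8%, 24.3% and 35.5% in the tissue-1, tissue-2 and enriched libraries of YAP5SA hearts and 46.4% and 81.8% in Control tissue-2 and tissue-3. There the YAP5SA libraries lay below both Control libraries, which themselves differed widely. In smooth muscle cells the genotypes overlapped, with 46.4%, 56.0% and 63.9% in YAP5SA and 79.5%, 58.8% and 72.2% in the enriched, tissue-2 and tissue-3 libraries of Control hearts.

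**Figure D5:**
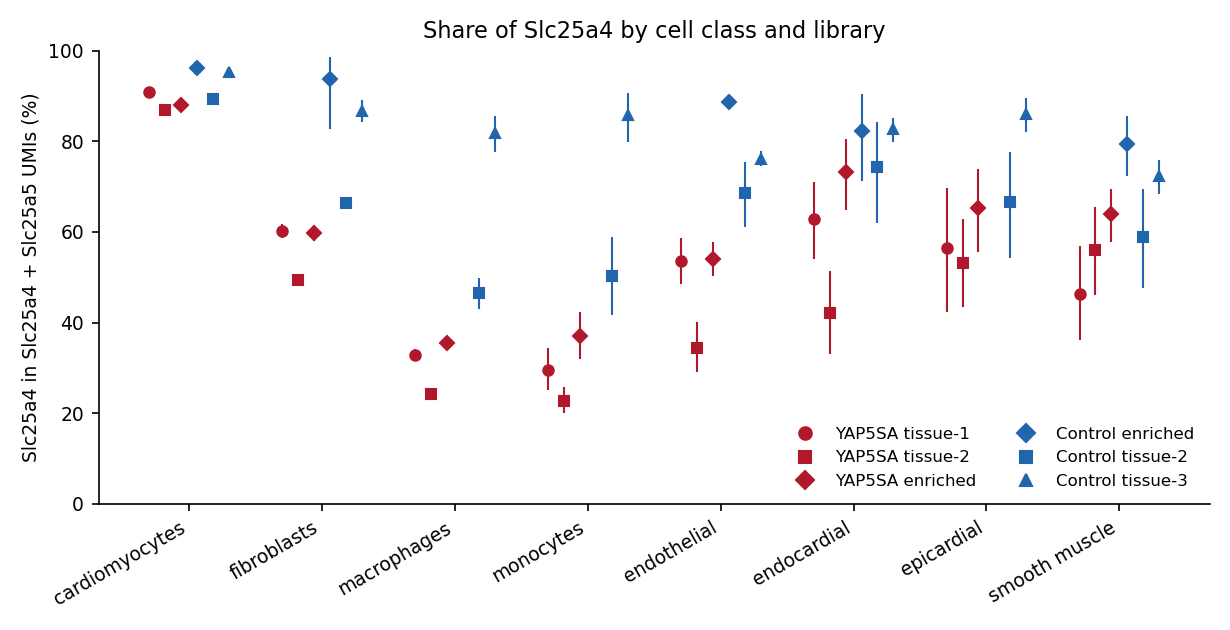
Slc25a4 UMIs as a percentage of Slc25a4 and Slc25a5 UMIs (y axis) by cell class (x axis); each point is a library with its exact 95% interval, YAP5SA in red left of Control in blue. Cardiomyocytes lie at 86.9% to 96.1% in all 6 libraries, and macrophages at 24.3% to 35.5% in YAP5SA and at 46.4% and 81.8% in Control.

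Levels also differed among cell types, given here as mean CPM by library totals in each genotype, over 3 libraries or, in Control macrophages, monocytes and epicardial cells, 2. Drop-seq counts 1 end of each transcript, so these values need no correction for length. Slc25a11 averaged 135 CPM in cardiomyocytes and 109 CPM in macrophages of YAP5SA hearts, and 547 and 150 CPM in those of Control hearts. In YAP5SA libraries the ranges of these classes overlapped, from 106 to 159 CPM in cardiomyocytes and from 96.5 to 124 CPM in macrophages. Slc25a20 averaged 68.0 CPM in cardiomyocytes and 52.4 CPM in epicardial cells of YAP5SA hearts, and 116 and 44.6 CPM in those of Control hearts, the epicardial values resting on 2 to 5 UMIs per library. Slc25a12 averaged 83.0 CPM in cardiomyocytes of YAP5SA hearts and 92.5 CPM in those of Control hearts, and at most 33.0 and 54.6 CPM in another class of the same genotypes. Slc25a37 averaged 36.6 CPM in macrophages and 16.4 CPM in cardiomyocytes of YAP5SA hearts, and 31.7 and 3.81 CPM in those of Control hearts. Differences between classes were not tested.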

How the data were processed

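Drop-seq UMI counts per gene and cell were used as the authors deposited them, unnormalized, with the deposited table of cells (library and cluster, as other labels) and without the deposited scaled values. Picard, STAR and Seurat 2.3.4 are named in the submitters' processing notes; genome build and annotation are not given in the sources used here. Names joined by hyphens (861) were merged with their members, leaving 21201 features. Features found under 1 way of naming alone (1205) were not tested. Counts were summed per library and cell class or cluster with at least 10 cells, and cells were not treated as replicates. No doublet caller was run.

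Tests used edgeR 4.0.16 (robust quasi-likelihood, TMM scaling, filterByExpr, genotype and, where it could be fitted, preparation as terms) in R 4.3.3, with Benjamini-Hochberg adjustment over all genes and a threshold of 0.05. In the macrophage, monocyte and epicardial classes, which Control enriched lacks, genotype was the only term, whereas the clusters of such cells were fitted with preparation. The class by genotype term was fitted with the library as a block. DESeq2 1.42.0 was an alternative. Exact tests used scipy 1.17.1 in Python 3.11.15. Intervals are exact (Clopper-Pearson, 95%) and cover counting error only. On simulated cardiomyocyte counts of 11806 genes, 0 of 100 genes changed by a log2 fold of 1 and 18 of 100 changed by 2 were recovered, with 2 false calls. Only these genes were changed there, whereas 25.4% of genes were called in the data. The recovery rates therefore do not carry over to the test of the data. Median UMIs per cardiomyocyte ran from 1876 to 2698 in YAP5SA libraries and from 2204 to 4595 in Control libraries.

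Named in the text are the members that passed, those with a mean of at least 50 CPM in either genotype, and their values per library; other genes are from the lists of carriers, partners and cell type markers. 1 member is counted in the totals but its own values are not reported here. Members and lists were chosen with earlier results of these data known. Other genes and the promoter sequences shown were chosen after values were seen.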

Additional observations from a re-analysis of the deposited data

Results flagged for a closer look

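The genotype effect on 10 members differed between cardiomyocytes and another cell class by the class by genotype term of the edgeR fit (adjusted p under 0.05 over all genes). Each value below is the log2 fold change, YAP5SA over Control, in cardiomyocytes minus that in the other class, so a negative value is a more negative effect in cardiomyocytes. The classes share the same 6 libraries.

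For Slc25a5 the difference was -2.86 against fibroblasts, -2.87 against macrophages, -3.24 against monocytes, -2.60 against endothelial, -2.41 against endocardial, -2.53 against epicardial and -2.06 against smooth muscle cells. For Slc25a3 it was -1.73, -1.94, -2.02, -2.05, -1.88, -1.65 and -2.20 against the same classes in the same order. For Slc25a4 it was -1.98 against fibroblasts, -1.97 against endocardial, -1.90 against epicardial and -2.15 against smooth muscle cells. For Slc25a11 it was -1.91 against fibroblasts, -2.06 against macrophages, -2.26 against monocytes, -2.20 against endothelial and -2.35 against endocardial cells.

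For Slc25a13 the difference was -1.60 against macrophages, -3.81 against monocytes and -2.04 against endothelial cells. Slc25a12 differed by -1.54 from macrophages, Slc25a20 by -2.40 from monocytes and Slc25a39 by -1.30 from fibroblasts. The positive differences were those of Slc25a24, at 1.72 against fibroblasts, 1.80 against endothelial and 2.77 against endocardial cells, and of Slc25a25, at 2.65 against fibroblasts and 2.74 against epicardial cells.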

How the results depend on the processing

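In cardiomyocytes 12 members were lower and 2 higher. With library totals alone 4 were lower and 7 higher, and in tissue libraries alone 5 were lower. Without the cells of the cluster YAP5SAcm 0 were lower and 0 higher, and in cells without a marker UMI 6 were lower and 1 higher. The shares of all genes called in these fits stand with the results above. Leaving out 1 library gave 0 to 17 lower and 0 to 2 higher members. In the other classes, where 0 passed, 1 was lower without the low-count filter and 1 was higher with DESeq2. Leaving out Control tissue-2 gave Slc25a13 lower in fibroblasts. In clusters, where 0 passed, 6 were lower without the filter, 2 with genotype alone and 4 with the joined-name libraries, 1 was higher with library totals and 1 with the joined-name libraries, and leaving out 1 library gave 0 to 23 lower and 0 to 7 higher. For the difference between classes, 29 lower and 5 higher pairs became 12 and 12 with library totals, 18 were lower with the joined-name libraries, 2 were higher with DESeq2 and 3 with at least 30 cells, and leaving out 1 library gave 11 to 31 lower and 1 to 8 higher. Slc25a34 turned to 0.32 in the joined-name libraries, where Control tissue-2 alone set the Control level once preparation was fitted. Slc25a46 turned to 0.21 with library totals, where the median of all genes was 0.92. The cause of the changes between settings was otherwise not tested. Single-gene values kept direction and side of the threshold in 539 cases, lost the call in 213, gained it in 5 and turned in 2. The difference in Slc25a4 share, -4.89 percentage points, ran from -7.03 to -3.32, and that in Slc25 share of UMIs, -0.953 percentage points, from -1.23 to -0.754. No paired analysis was possible because the numbers in the titles and in the cell table do not match for the YAP5SA tissue libraries. With 3 libraries a genotype and few UMIs for many members, small differences were not detectable.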
